A study of Mus musculus with 22 samples.

Results

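The interleukin 6 family and its STAT3 pathway were described through 10 genes, namely the ligands Il6, Lif, Il11 and Osm, the receptors Il6ra, Il6st and Osmr, the transcription factor Stat3, its feedback inhibitor Socs3 and Bcl3. Members were the probes whose RefSeq accession belonged to one of these genes. They were 10 of the 20018 named genes and 11 of the 55681 probes on the array, since Stat3 had a pair of probes and every other gene had 1.

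Cytokines of this family bind a receptor chain of their own and signal through the shared chain gp130, which Il6st encodes. Janus kinases bound to the receptor phosphorylate STAT3, which enters the nucleus and switches on genes of inflammation, survival and the acute phase response, Socs3 among them. SOCS3 then binds gp130 and shuts the signal off. In injured lung, epithelial cells, macrophages and fibroblasts are known sources of IL-6.

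The data were lung RNA of 22 female C57BL/6 mice, 8 weeks old when the experiment began, taken 24 hours after a single intratracheal instillation. Control mice (n = 5) received the vehicle, saline with lavage fluid, and the exposed mice received 18 µg (n = 6), 54 µg (n = 5) or 162 µg (n = 6) of Mitsui7, a multiwalled carbon nanotube, in that vehicle. All mice were anaesthetized for the instillation and gave RNA of the right lung. Each RNA was labelled with Cy5 and hybridized against a Cy3-labelled reference RNA pooled from 11 mouse cell lines, without a dye swap.

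A value here is the log2 ratio of lung to reference signal of 1 probe, loess normalized within the array. A value of 0 thus means the typical ratio of that array at that intensity, and not necessarily a signal equal to the reference. Fold changes came from limma with dose and slide as terms over all 22 arrays. A gene was called when its probe was expressed, its change was at least 1.5-fold and its p, after Benjamini-Hochberg adjustment across all probes, was at most 0.05. Some results are also given without loess, with arrays centred on their median ratio or not normalized at all. Here "without loess" means both of these settings, and not the Cy5 signal used alone. The arrays lay on 7 slides, and the 5 controls lay on 5 of them. The 6 arrays of the other 2 slides had 39.1% to 54.5% of probes well above background in Cy5, against 46.5% to 69.5% on the slides with a control. All 7 lung markers, which included Sftpc and Ager, were expressed, and none was called at any dose. Whole lung was measured, so fewer or more cells of a type and less or more RNA per cell cannot be told apart.

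All 10 genes were expressed, and 3 of them rose at 162 µg, which were Il6, Socs3 and Bcl3. At 162 µg 2.74% of the named genes were called higher. No member was called at 18 µg or 54 µg by limma, where 0.52% and 0.205% of named genes were called higher. An unadjusted p under 0.05 was found for 3 members at 18 µg, 6 at 54 µg and 7 at 162 µg, against 19%, 12% and 24.4% of all named genes. Il6 and Bcl3 are also in the study's list of genes that changed at all 3 doses, so their rise is not independent evidence. The study thus called both at 18 µg and 54 µg, by its own test on these samples, where limma here did not. Its RT-qPCR, on 3 mice per group, gave a significant rise of Il6 at 162 µg and none at 18 µg or 54 µg. It also gave a rise at a dose below 18 µg, in additional mice exposed for that purpose. With so few mice, a missing rise does not show that the level was unchanged.

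Regulatory sequence is shown for the 3 genes that rose, because STAT3 acts on some of its targets through the first of the motifs searched and because NF-kB and AP-1 are known regulators of cytokine genes. The sequences are from RefSeq on the GRCm38.p6 build, read 5′ to 3′ on the strand of the gene, with motif matches in capitals. Il6 is given as the 250 bases before its start, and Socs3 and Bcl3 as the match with 10 bases on each side.
Il6, chr5:30012864-30013113, plus strand: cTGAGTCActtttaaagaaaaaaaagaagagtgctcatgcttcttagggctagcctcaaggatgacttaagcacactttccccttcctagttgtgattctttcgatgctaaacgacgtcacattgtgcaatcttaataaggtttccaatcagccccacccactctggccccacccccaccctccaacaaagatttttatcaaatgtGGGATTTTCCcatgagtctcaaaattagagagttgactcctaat
Socs3, chr11:117969502-117969530, minus strand: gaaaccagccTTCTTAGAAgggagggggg
Bcl3, chr7:19822734-19822763, minus strand: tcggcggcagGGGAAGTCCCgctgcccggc

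The search covered windows of 300 bases, 250 before and 50 after the start, on both strands, for 9 of the 10 members (all but Osm). The STAT motif TTCNNNGAA was found in the window of Socs3 alone among the members, at positions -154 to -146 from the start used, and in 8.3% of all 32851 windows. That start lies inside the annotated gene, so the stretch could be transcribed in another transcript of Socs3. The NF-kB motif was found in Il6, at positions -44 to -35 from the start, in Lif, and in Bcl3, at positions 3 to 12, and in 8.46% of all windows. The AP-1 motif TGANTCA was found in Il6, Lif, Il11 and Osmr, and in 7.81% of all windows. These are matches of letters and not shown to be sites in use.

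Among the ligands, Il6, the cytokine that gives the family its name, had log2 ratios in the 5 controls of -2.29, -2.68, -2.81, -2.06 and -2.13. At 18 µg they ran from -1.85 to 1.24 with a median of -0.57, and at 54 µg they were -0.65, 0.74, -1.28, 0.34 and 1.57. At 162 µg the lowest was 0.08, the median 0.89 and the highest 1.59. Every mouse at 162 µg lay above every control, and the 3 doses overlapped each other. The ratios of all mice at 18 µg and 54 µg were also above those of the controls, but 18 µg replicate 6 and 54 µg replicate 3 were, like the controls, not well above background, so their order against the controls was not measured. Of all named genes, 1.2% had every ratio above every control at 18 µg, 1.34% at 54 µg and 3.12% at 162 µg.

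The log2 fold change of Il6 at 162 µg was 3.11 ± 0.50 (SE, adjusted p = 0.00153 by limma). At 18 µg it was 1.87 ± 0.50 (adjusted p = 0.0698) and at 54 µg 2.35 ± 0.53 (adjusted p = 0.0964), neither past the threshold. The Il6 probe was not well above background in any control, but was so in 5 of 6 mice at 18 µg, 4 of 5 at 54 µg and 6 of 6 at 162 µg. Its control level is therefore only bounded. With the controls set at the background floor, Il6 was 8.38-fold higher at 162 µg, where the fit gave 8.66-fold. This estimate compares mean normalized Cy5 levels, without the slide term. Each control took the lowest level called well above background on its array, or its measured level where higher. Probes not well above background can lie over that floor, so 8.38-fold is not a strict lower limit. The same calculation gave 3.43-fold at 18 µg and 5.55-fold at 54 µg, against 5.08-fold at 54 µg in the fit with slide. Each of these 2 exposed means holds a mouse that was not well above background, so they are not bounds.

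**Figure D1:**
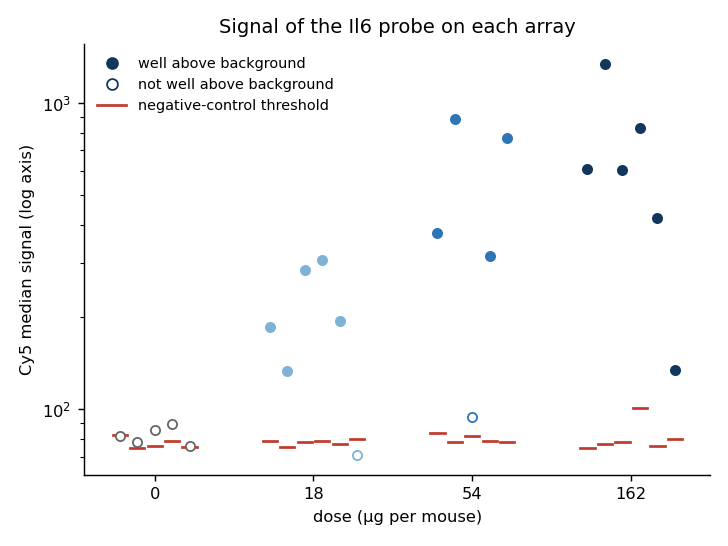
Cy5 median signal of the Il6 probe on each of the 22 arrays (vertical axis, logarithmic) by dose in µg per mouse. Filled points were well above background, open points were not, and each red line is the negative-control threshold of that array. All 5 controls are open points and all 6 mice at 162 µg are filled.

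Il6 was higher than in the control of the same slide on 4 of 4 slides at 18 µg, 3 of 3 at 54 µg and 4 of 4 at 162 µg, by differences that are only bounded because no control was well above background. The call at 162 µg held without each mouse in turn, with adjusted p from 9.52e-05 to 0.0107, and was lost with no normalization (log2 2.65, adjusted p = 0.189 by limma). Il6 also passed the threshold at 54 µg without 54 µg replicate 3 (adjusted p = 0.00312 by limma) or without 18 µg replicate 4 (adjusted p = 0.0382). At 18 µg it passed without 18 µg replicate 6, 54 µg replicate 3 or 54 µg replicate 5, with adjusted p of 0.0464, 0.0293 and 0.00917.

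Il11, a cytokine of mesenchymal cells, had control values of -1.33, -2.02, -1.88, -0.86 and -1.65. At 162 µg its values ran from -1.08 to -0.41 with a median of -0.83, and 3 of 6 mice were above every control. Its log2 fold changes were 0.14, 0.48 and 0.57 in the order of dose, the last with an SE of 0.21 and an adjusted p of 0.122. At 54 µg its values were -1.30, -0.89, -1.07, -1.21 and 0.17, and the last, of replicate 5, was the highest of all mice. Without that mouse the change at 162 µg was 0.63 and past the threshold (adjusted p = 0.0408 by limma). At 18 µg Il11 was lower than control without loess.

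Osm, which myeloid cells release, and Lif, which is known for its role in implantation of the embryo, were not called at any dose. Osm values in controls were 0.32, 0.45, 0.18, -0.004 and 0.05. They ran from 0.0008 to 0.78 at 18 µg and from 0.11 to 0.85 at 162 µg, and at 54 µg they were 0.52, 1.19, -0.09, -0.01 and 0.66. The lowest and the highest mouse at 54 µg lay on both sides of all controls. Its log2 fold changes were 0.25, 0.26 and 0.29, with adjusted p of 0.591, 0.810 and 0.496. The interval at 162 µg ran from -0.12 to 0.69. Lif was well above background in 0 of 5 controls, 0 of 6 mice at 18 µg, 3 of 5 at 54 µg and 2 of 6 at 162 µg. Its control values of -0.56, -0.31, -0.27, -0.26 and -0.30 overlapped those at 162 µg, which ran from -0.30 to 0.29. With so few mice above background no fold is given for Lif, and its adjusted p was 0.951 at 54 µg and 0.393 at 162 µg by limma.

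Among the receptors, Osmr, the oncostatin M receptor chain that pairs with gp130, had control values of -0.29, 0.36, -0.17, -0.02 and -0.18. At 162 µg the lowest was 0.33, the median 0.78 and the highest 0.88, with 5 of 6 mice above every control. At 18 µg the values ran from -0.43 to 0.82 and at 54 µg they were 0.34, 0.62, -0.03, 0.77 and 1.19. Its log2 fold changes were 0.29, 0.68 and 0.73 (SE of the last 0.22, adjusted p = 0.0623 by limma), which missed the threshold at every dose. The change at 162 µg passed it without 18 µg replicate 4, 54 µg replicate 3 or 54 µg replicate 5, with adjusted p of 0.0228, 0.0302 and 0.00645. It also passed when p was adjusted over expressed probes only, and at 18 µg Osmr was lower than control without loess.

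Il6st, the shared chain gp130, passed the p threshold at 162 µg and missed the fold threshold. Control values were 1.64, 1.86, 1.62, 1.37 and 1.06, and those at 162 µg ran from 1.52 to 2.65 with a median of 1.85. The groups overlapped, with 3 of 6 mice above every control. At 54 µg the values were 1.97, 2.38, 0.86, 1.93 and 1.89, with 4 mice above every control and replicate 3 below every control. The change at 162 µg was 1.48-fold (log2 0.57 ± 0.15 SE, adjusted p = 0.0288 by limma). On the slides with both groups Il6st was higher at 162 µg on 4 of 4, by 0.22 to 1.03. The p threshold was missed under 11 of 19 other settings, and without 4 of the 22 mice. Some of the 19, such as other fold thresholds and expression filters, could not change this p. The adjusted p by limma was 0.331 with no slide term and 0.135 with slide as a random block. It was 0.131 with only the 2 groups compared and 0.834 with median centring. Without control replicate 1, 2 or 4 or 162 µg replicate 1, 3 or 5 it passed both thresholds, with log2 changes of 0.59 to 0.65.

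Il6ra, the chain that binds IL-6 itself, was not called at any dose. Its values were 1.13 to 2.33 in controls and 1.64 to 3.07 at 162 µg, with 4 of 6 mice within the range of the controls. The log2 fold changes were -0.18, 0.04 and 0.28, and the interval at 162 µg ran from -0.19 to 0.74. At 162 µg the change turned to -0.025 with median centring and to -0.043 with no normalization.

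Stat3 itself was not called at any dose. Its brighter probe read 1.41, 1.45, 1.15, 1.01 and 1.21 in controls and 1.18 to 1.81 at 162 µg, with 4 of 6 mice above every control. Its log2 fold changes were -0.06, 0.25 and 0.28, the last with an adjusted p of 0.244, and at 162 µg the sign turned without loess. At 54 µg its values were 1.47, 1.47, 1.27, 1.66 and 1.78, with 4 of 5 mice above every control. The dimmer probe gave 0.06, -0.07 and 0.44 (adjusted p at 162 µg 0.174), so the pair of probes disagreed in sign at 18 µg and 54 µg, and neither was called. This is the level of the mRNA, and phosphorylation of the protein was not measured on these arrays.

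Socs3, the feedback inhibitor of gp130 signalling, rose at 162 µg. Control values were -0.04, -0.09, -0.60, -0.79 and -0.59, and those at 54 µg were 0.70, 0.65, 0.44, 0.71 and 1.34. At 18 µg they ran from -0.12 to 1.40 with a median of 0.31, and at 162 µg from 0.73 to 1.36 with a median of 0.91. Every mouse at 54 µg and 162 µg lay above every control, and 5 of 6 did at 18 µg.

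The log2 fold change of Socs3 was 1.28 ± 0.22 at 162 µg (SE, adjusted p = 0.00215 by limma), a 2.43-fold rise. It was 0.73 at 18 µg and 1.01 at 54 µg, with adjusted p of 0.0950 and 0.0981. Within slides Socs3 was higher at 162 µg on 4 of 4, by 0.98 to 1.71, higher at 54 µg on 3 of 3, and higher at 18 µg on 3 of 4. The call at 162 µg held without each mouse in turn, with adjusted p up to 0.0136. It was lost with median centring or no normalization. At 54 µg Socs3 passed without 54 µg replicate 3 (adjusted p = 0.00983) or 18 µg replicate 4 (adjusted p = 0.0326), and at 18 µg without 54 µg replicate 5 (adjusted p = 0.0406).

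Bcl3, an atypical IkB protein that binds NF-kB p50 and p52 and is induced by STAT3 in some cells, rose 1.89-fold at 162 µg (log2 0.92 ± 0.24 SE, adjusted p = 0.0315 by limma). Control values were -0.17, 0.27, -0.28, -0.04 and -0.42. At 54 µg they were 1.01, 0.64, 0.34, 0.43 and 1.62, and at 162 µg they ran from 0.36 to 1.18 with a median of 0.82. Every mouse of these 2 doses lay above every control. At 18 µg the values ran from 0.10 to 1.32, and 5 of 6 mice lay above every control. The log2 fold changes at 18 µg and 54 µg were 0.72 and 0.91, with adjusted p of 0.146 and 0.216.

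The call of Bcl3 was lost with median centring (log2 0.59, adjusted p = 0.672 by limma), no normalization (0.57), Cy5 alone (adjusted p = 0.0897) and the deposited log2 table (adjusted p = 0.101). It was also lost without control replicate 1, 3, 4 or 5 (adjusted p = 0.0705, 0.0946, 0.0575 and 0.102 by limma) and without 162 µg replicate 1, 2, 3 or 5 (adjusted p = 0.0739, 0.0846, 0.0632 and 0.0749), with log2 changes of 0.85 to 0.97. At 18 µg it passed without 54 µg replicate 5 (adjusted p = 0.0157), and at 54 µg without 54 µg replicate 3 (adjusted p = 0.0405). On slides with both groups Bcl3 was higher than control on 4 of 4 at 18 µg, 3 of 3 at 54 µg and 4 of 4 at 162 µg.

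**Figure D2:**
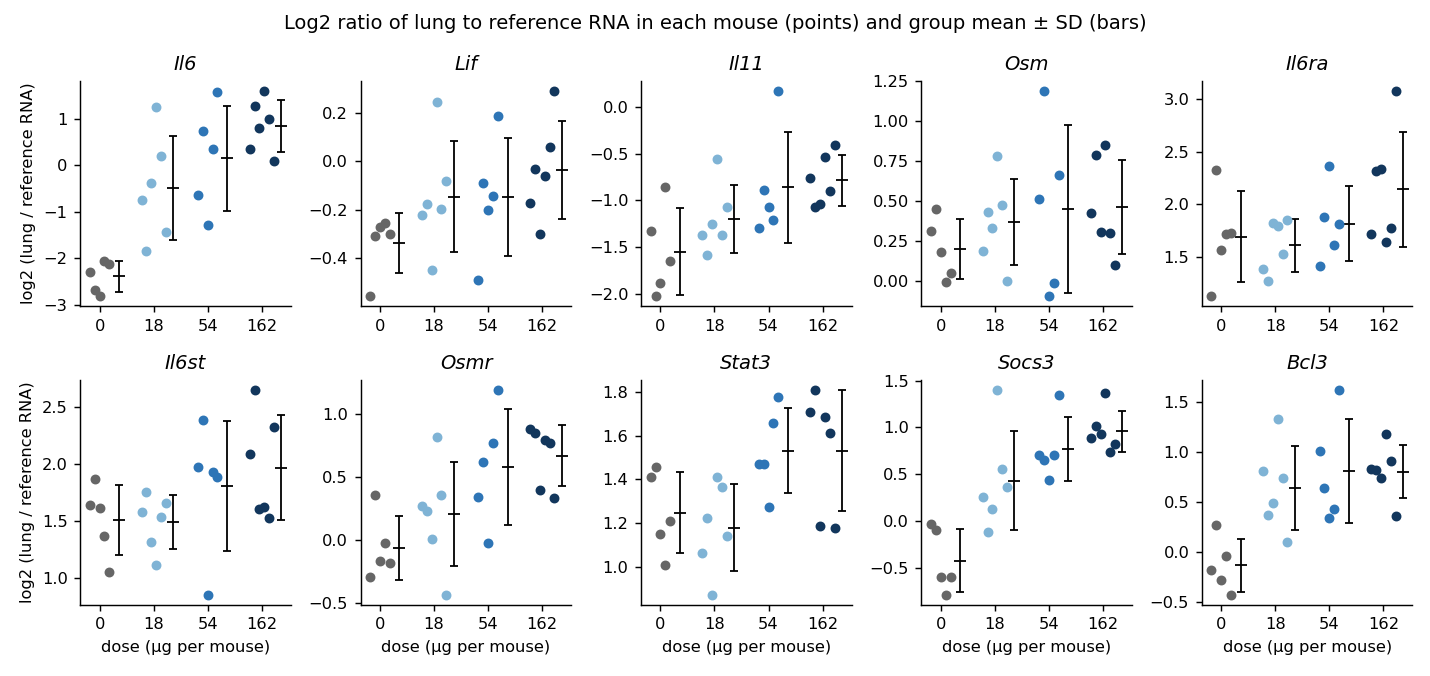
Log2 ratio of lung to reference RNA of each of the 10 genes (1 panel each, with its own vertical scale) in every mouse, by dose in µg per mouse, with 0 for the vehicle. Points are mice, and the bar beside each group is its mean ± SD (n = 5, 6, 5 and 6). All controls lie below all mice of 162 µg for Il6, and below all mice of 54 µg and 162 µg for Socs3 and Bcl3. The Il6 points of the controls, 18 µg replicate 6 and 54 µg replicate 3 were not well above background.

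Across the members, 8 of 10 had a higher level than control at 18 µg, 10 of 10 at 54 µg and 10 of 10 at 162 µg, though without loess Il11, Il6st and Osmr turned lower at 18 µg and Il6ra and Stat3 at 162 µg, and with median centring Lif did at 54 µg. Of all named genes, 47.6%, 48.7% and 49.9% were higher at these doses. The median log2 fold change of the 10 was 0.20, 0.43 and 0.57 in the order of dose. Over all 16436 expressed genes it was -0.02, -0.01 and -0.01. The counts and medians of the members include Lif, whose sign was not measured reliably. Its probe was not well above background in any control or any mouse at 18 µg. The 3 dose groups were compared with the same 5 controls, so these counts share control values.

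**Figure D3:**
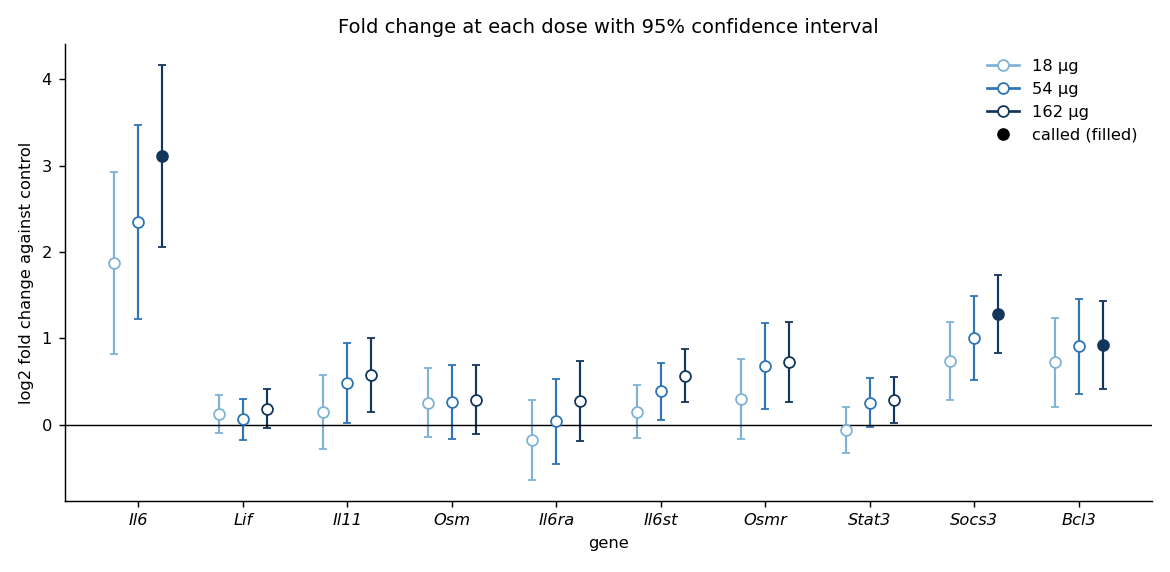
Log2 fold change against control of each of the 10 genes at 18, 54 and 162 µg (vertical axis), from limma with slide as a term. Bars are 95% confidence intervals, and filled points are called changes. The 3 filled points are Il6, Socs3 and Bcl3 at 162 µg.

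Between doses, no member was called by limma at 162 µg against 18 µg, where 2.74% of named genes were called higher. An unadjusted p under 0.05 was found for 6 of the 10 members and for 22.6% of named genes. The log2 difference was 1.25 for Il6 (adjusted p = 0.168), 0.55 for Socs3 (adjusted p = 0.157), 0.42 for Il6st (adjusted p = 0.106) and 0.34 for Stat3 (adjusted p = 0.126). Bcl3 differed by 0.20, with an interval from -0.28 to 0.68. Il6 passed without 54 µg replicate 3 or 54 µg replicate 5, with adjusted p of 0.0366 and 0.0478. Its log2 difference stayed at 1.25 in both fits, so only the p changed. Socs3 passed without 18 µg replicate 4 (adjusted p = 0.0367).

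Neighbouring doses were not told apart for any member by limma. Of all named genes 0.015% were called higher at 54 µg against 18 µg and 0% at 162 µg against 54 µg. In the former 1 member, Stat3, and 13.2% of named genes had an unadjusted p under 0.05, and in the latter 0 members did. The interval of the log2 difference between 162 µg and 54 µg ran from -0.28 to 1.82 for Il6, from -0.18 to 0.73 for Socs3 and from -0.50 to 0.53 for Bcl3. In the order of mean levels, Il6 and Socs3 were lowest in controls, then 18 µg, 54 µg and 162 µg, whereas the means of Bcl3 at 54 µg and 162 µg were 0.81 and 0.80.

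Mice within a dose differed from each other for several members at once. 18 µg replicate 4 was the highest of its group in 8 of the 10 members and 54 µg replicate 5 in 7 of the 10, while 54 µg replicate 3 was the lowest of its group in 7. These 3 exposed mice lay on slides that held no control. Control replicate 2, on a slide with a control, was the highest of its group in 6 of the 10. How often these mice were highest or lowest over all genes was not counted, so the pattern may not be particular to the members. The mean log2 ratio over the 10 members was 0.96 in 18 µg replicate 4 against 0.16 to 0.52 in the other mice of that dose. In a setting chosen after seeing the data, without those 2 slides, 2 members were called at 18 µg (Il6 and Bcl3), 3 at 54 µg (Il6, Socs3 and Bcl3) and 4 at 162 µg (these 3 and Osmr). Without 18 µg replicate 4 and 162 µg replicate 6, the arrays that correlated least with the others, 0, 2 and 4 members were called.

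**Figure D4:**
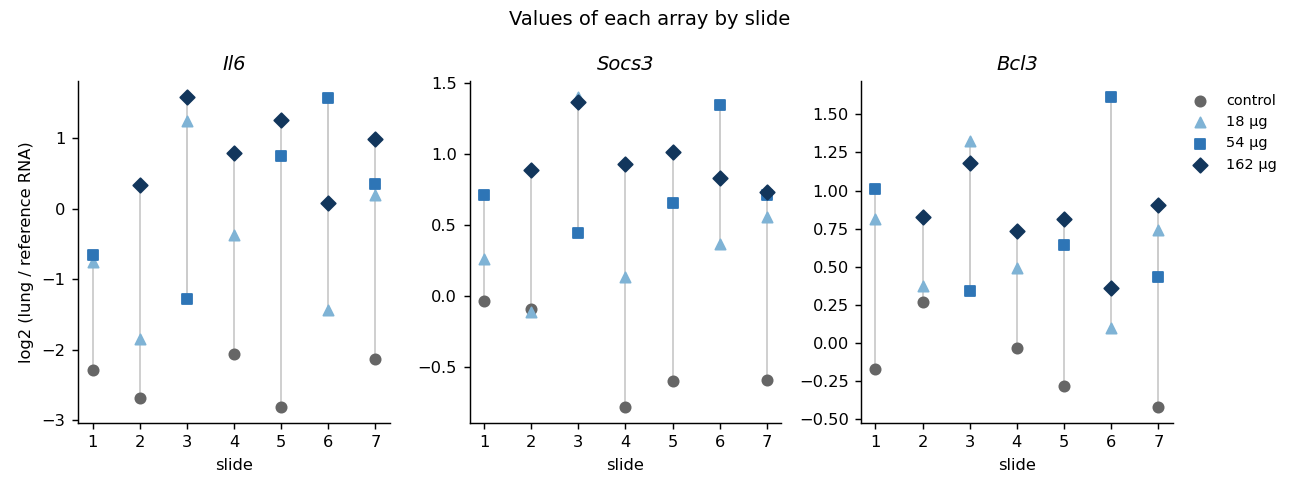
Log2 ratio of Il6, Socs3 and Bcl3 on each array (vertical axis, own scale in each panel) by slide, numbered 1 to 7. Symbols mark the dose, and grey lines join arrays of the same slide. On each slide with a control, the 162 µg array, where there is one, lies above it for the 3 genes, and slides 3 and 6 hold no control.

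In the rest of the pathway, none of the 7 other ligands of the family (such as Clcf1 and Cntf) and the 4 other receptors (such as Lifr) was called against control by limma at any dose. Their median log2 fold changes at 162 µg were -0.05 and -0.14. The Janus kinase genes Jak1, Jak2 and Tyk2 were not called either, with log2 fold changes at 162 µg of -0.13, 0.20 and -0.16.

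Of 8 other SOCS genes and negative regulators, 2 rose at 162 µg, where 2.74% of all named genes were called higher. None of the 8 was called at 18 µg or 54 µg. Cish, a SOCS family gene induced by STAT5, rose by 0.95 ± 0.23 (SE, adjusted p = 0.0191 by limma), with 0.84 at 18 µg and 0.96 at 54 µg not past the threshold. Socs2, an inhibitor of growth hormone signalling, rose by 0.70 ± 0.18 at 162 µg (adjusted p = 0.0274) and was also higher at 162 µg than at 18 µg (log2 0.63, adjusted p = 0.0410). Socs1, an inhibitor of interferon signalling, ran the other way in size, at 0.97, 0.88 and 0.13 in the order of dose, with no call. Ptpn11, which encodes the phosphatase SHP2 that binds gp130, passed the p threshold at 162 µg (0.54, adjusted p = 0.0189) and missed 1.5-fold. Ptpn6 had -0.40 and Socs5 -0.34 at 162 µg, neither called. The median of the 7 expressed genes of this list was 0.48 at 162 µg. Without each mouse in turn, a setting chosen after seeing the data, 0 to 3 genes of the list were called higher at 162 µg, and 0 without control replicate 3, 162 µg replicate 1 or 162 µg replicate 2. The higher level of Socs2 at 162 µg than at 18 µg was lost in 14 of those 22 fits.

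Of 16 genes known as STAT3 targets, 4 rose at 18 µg, 2 at 54 µg and 10 at 162 µg, and none fell. Of all named genes, 0.52%, 0.205% and 2.74% were called higher at these doses. The median log2 fold change of the 16 was 0.29, 0.65 and 0.89 in the order of dose, against -0.02, -0.01 and -0.01 over all expressed genes. These genes answer to other factors as well, and the list was chosen with earlier results of these data known. Saa3 and Timp1 are also in the list of genes that the study found changed at all its doses in these samples. Control replicate 2 stood apart, with a mean log2 ratio over the 16 genes of 0.81 against -0.07 to 0.44 in the other controls, and was also the control with the highest neutrophil markers. Without it, 4, 3 and 11 of the genes were called higher in the order of dose.

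The number called also depended on other single mice. At 162 µg it was 6 without control replicate 4, and 7 to 11 without each of the other mice. At 18 µg it was 0 without control replicate 1 and 1 to 5 without each of the others, with Lcn2 lost in 16 and Pim1 in 13 of the 22 fits. At 54 µg it was 0 without control replicate 1, 54 µg replicate 2 or 54 µg replicate 4. At 162 µg Saa3, Timp1, Lcn2, Cebpd and Il1r2 were called in all 22 fits.

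Saa3, an acute phase serum amyloid, rose at all 3 doses, by 4.27, 5.13 and 6.37 on the log2 scale (adjusted p = 0.000107 at 162 µg by limma). Timp1, an inhibitor of metalloproteinases, rose by 3.17, 3.72 and 3.59. Lcn2, which binds bacterial siderophores, rose at 18 µg and 162 µg by 1.14 and 1.65, and its 1.11 at 54 µg was not called (adjusted p = 0.164). The kinase gene Pim1 rose at 18 µg and 162 µg by 0.93 and 0.86.

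The other 6 rose at 162 µg and were not called at 18 µg or 54 µg. Il1r2, the decoy receptor of IL-1, rose by 2.36, and Cebpd, a transcription factor of the acute phase, by 1.91. Their log2 ratios in control replicate 2 were 3.57 and 2.81, against at most 1.03 and 0.60 in the other controls, so that 3 of 6 and 2 of 6 mice at 162 µg lay above every control. Without that mouse the changes were 2.93 and 2.55, both called. Junb, a subunit of AP-1, and the kinase gene Pim3 rose by 0.90 each, Bcl2l1, an inhibitor of apoptosis, by 0.87 and Il4ra, the IL-4 receptor chain, by 0.73. At 162 µg against 18 µg, Il1r2, Cebpd, Bcl2l1 and Pim3 were higher, by 2.22, 1.71, 1.07 and 0.87 (adjusted p = 0.00883, 0.0151, 0.00292 and 0.0218 by limma). Cebpb, Mcl1, Lrg1, Fgb, Tnfrsf1b and Hif1a were not called at any dose, and Fgb, the fibrinogen beta chain, had 1.51 ± 0.50 (SE) at 162 µg with an adjusted p of 0.0870.

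**Figure D5:**
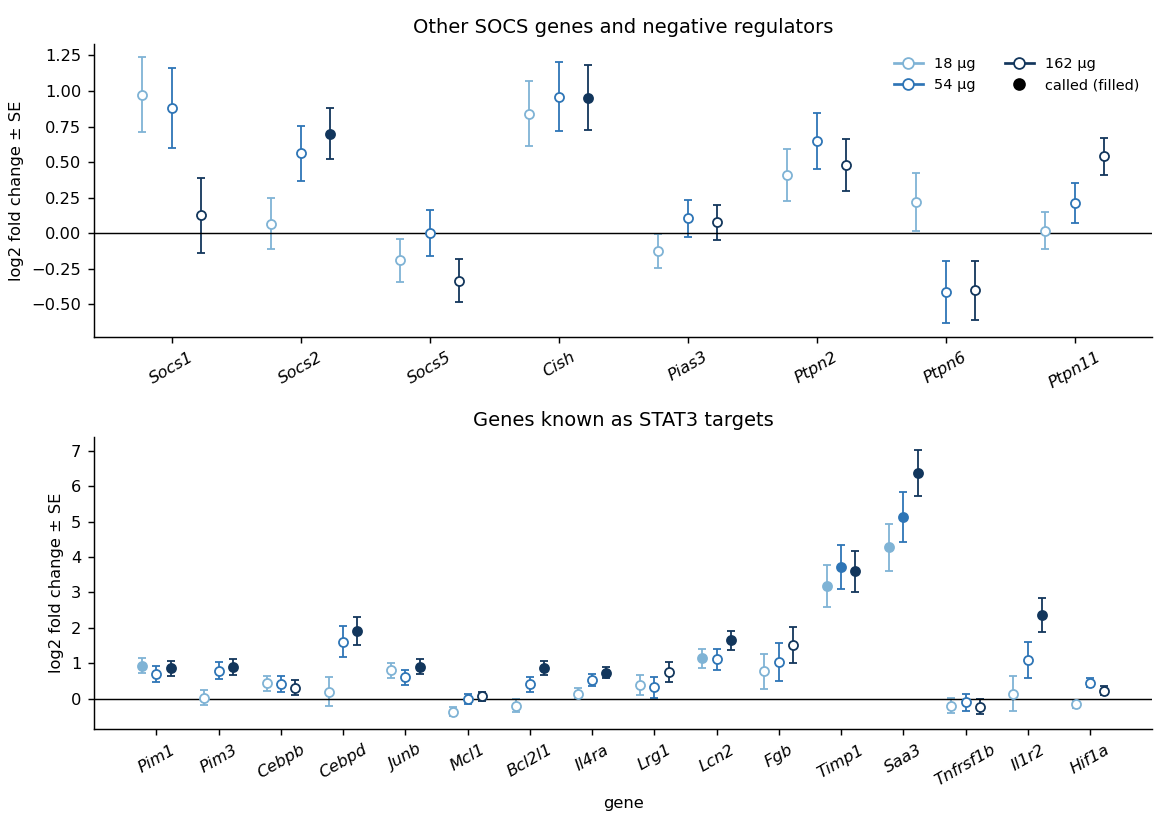
Log2 fold change against control at 18, 54 and 162 µg of 8 other SOCS genes and negative regulators (upper panel) and of 16 genes known as STAT3 targets (lower panel, wider scale). Bars are standard errors, and filled points are called changes. At 162 µg 2 genes of the upper panel and 10 of the lower are filled.

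Genes whose 3 fold changes lay nearest to those of Il6 were Cxcl1, Serpina3m, Ccl2, Ch25h and Cxcl5, at a root mean square difference of 0.40 to 0.57 over 16436 expressed genes. They were picked by their fold changes, so their rise follows from the choice and is not a separate result. All 5 were called at 162 µg, with 2.59, 3.64, 2.21, 2.18 and 2.29. Cxcl1 and Serpina3m were called at all 3 doses, and Ccl2 also at 54 µg. Nearest to Socs3 were Lilrb4a, Retnlg, Itga7, Ahsg and Fgb, at 0.05 to 0.14. Of these Itga7 was called at 162 µg (log2 1.26, adjusted p = 0.00543 by limma). Retnlg, at 1.36, had an adjusted p of 0.156 there and is also one of the neutrophil markers.

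Markers of other cells varied beside these genes. Of 10 neutrophil markers 9 had a named probe, among them S100a8 and S100a9, and none was called at any dose, though 7 of 9 were higher at 162 µg, with a median of 0.64. In lavage fluid the study counted significantly more neutrophils at every dose than in controls, which is a count of cells and not of RNA. The mean log2 ratio of the 9 markers per mouse was 1.49 to 4.11 in controls (median 1.68). At 162 µg it was 1.69 to 4.03 (median 2.62). Control replicate 2 had the highest value of the controls, and its Il6 value was -2.68. Calls of the neutrophil markers without it were not examined. Without that mouse, Il6, Socs3 and Bcl3 were called at 162 µg and Il6st passed the fold threshold.

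The mean log2 ratio of 7 alveolar macrophage markers per mouse was 3.07 to 3.58 in controls and 3.31 to 4.59 at 162 µg. Chil3 rose at 18 µg by 1.73 and the scavenger receptor Marco at 162 µg by 1.51, the only calls of this list against control. The median log2 fold change of the 7 was 0.58 at 18 µg, with 5 higher and 2 lower. At 162 µg it was 0.65, with 6 higher and 1 lower. Of 6 eosinophil markers 5 were expressed, with Epx not expressed, and their median log2 fold change at 162 µg was 0.09, with 3 higher and 2 lower. Ear6 rose by 0.81, while Siglecf had -0.64, Ccr3 -0.07, Prg2 0.09 and Ear2 0.15. The mean log2 ratio of the 5 per mouse was 1.87 to 2.34 in controls and 1.95 to 2.75 at 162 µg. Col3a1 among 6 fibroblast markers fell by 0.96 at 162 µg, and Ms4a1 among 6 T and B cell markers fell by 0.89. Of the 20018 named genes, 580 were called lower at 162 µg than in controls. At 162 µg against 18 µg, Cd2, Cd79b and Ms4a1 fell by 0.78, 1.02 and 1.61, as did Itgax by 0.64 and Col3a1 by 1.17, while Pdgfra rose by 0.91. In that comparison 272 of the 20018 named genes were called lower and 548 higher. The mean log2 ratio of the fibroblast list was 0.12 to 0.75 in controls and -0.41 to 0.60 at 162 µg, and that of the T and B cell list 0.91 to 1.59 and 0.39 to 1.01. The part of these markers in the changes of Il6, Socs3 and Bcl3 was not tested.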

How the data were processed

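Two-colour Agilent arrays of 22 mouse lungs were used. The authors deposited scanner intensity values, and a table of log2 ratios whose normalization is not given in the sources used here. The file headers name Feature Extraction 10.7.3.1. Median signals of both channels were taken without background subtraction. Spots marked as outliers were left out. Log2 ratios of Cy5 to Cy3 were loess normalized (span 0.3), with the median over replicate spots of each probe.

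Expressed probes, 39549 of 55681, had a Cy5 signal above the trimmed mean (5%) plus 3 trimmed SDs of the 308 spots of the negative control, in 80% or more of the mice of at least 1 dose group. RefSeq accessions named 26413 probes. The brightest probe stood for a gene. R 4.3.3 and limma 3.58.1 were used, with 12 residual degrees of freedom. The fit was tested on simulated data. The number of arrays limits precision.

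The members and gene lists were chosen with earlier results of these data known. Named genes were every member, called genes of the other pathway lists, the brightest markers, and the 5 genes whose 3 fold changes were nearest to those of Il6 or Socs3 by root mean square difference. Socs1, Ptpn11 and the called markers were named after their values were seen. The alternatives tried covered background, normalization, slide, pairing, filters, thresholds and single mice. The list of kinases and other STAT genes is not reported here as a whole.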

Additional observations from a re-analysis of the deposited data

Results flagged for a closer look

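Dixon's ratio, the gap of the most distant mouse to its nearest neighbour over the range of the group, was checked for each of the 10 genes in each of the 4 groups. Of 40 checks 2 passed the critical value, and chance passes about 1 in 20. Lif in control replicate 1 had a ratio of 0.827, with a log2 ratio of -0.56 against -0.31 in the nearest control, and no control was well above background for that probe. Il11 in 54 µg replicate 5 had a ratio of 0.721, with a log2 ratio of 0.17 against -0.89 in the nearest mouse of the group.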

How the results depend on the processing

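The members called numbered 0 at 18 µg, 0 at 54 µg, 3 at 162 µg and 0 at 162 µg against 18 µg. Of 76 such counts under other settings, 56 stayed within 1.5 times and 20 moved. At 18 µg the count was 1 with Cy5 alone (minus the 75th percentile), 1 with only the 2 groups compared, 1 with p adjusted over expressed probes and 2 with slide as a random block. At 54 µg it was 1 with Cy5 alone, 2 with slide as a random block, 2 with no slide term and 4 with only the 2 groups compared. At 162 µg it fell to 1 (Il6) with median centring and to 0 with no normalization, and at 162 µg against 18 µg it was 1 (Il6) with only the 2 groups compared. The 2 settings added after seeing the data gave 2 at 18 µg, 3 at 54 µg and 2 at 162 µg against 18 µg without the 2 slides that held no control. Without the 2 arrays that correlated least with the others they gave 2 at 54 µg and 2 at 162 µg against 18 µg. Without each mouse in turn the counts ran from 0 to 3, 0 to 3, 2 to 5 and 0 to 1. Il6 lost its call at 162 µg with no normalization, Socs3 and Bcl3 with median centring or no normalization, and Bcl3 also with Cy5 alone, with the deposited log2 table (adjusted p = 0.101 by limma) and at a 2-fold threshold. The cause was not tested.

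The replicate numbers of the labels are not said to pair mice. Same-number pairs correlated from -0.17 to 0.62, 20 of 31 of them over 0.1, and 11 of the 31 shared a slide. With the replicate block in place of slide 3, 3, 4 and 1 members were called in the order above, and with the replicate block together with slide 2, 0, 4 and 0. The block in place of slide turned Il6st at 18 µg to -0.068, and the block with slide turned Il6ra at 54 µg to -0.12. Of the 22 arrays, 12 correlated best with one of their own number.

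Signs turned only in fold changes that were not called. With median centring Il11, Il6st and Osmr at 18 µg were -0.094, -0.26 and -0.12, Lif at 54 µg -0.11, Il6ra and Stat3 at 162 µg -0.025 and -0.031, and Lif and Osm at 162 µg against 18 µg -0.073 and -0.0011. With no normalization Il11, Il6st and Osmr at 18 µg were -0.26, -0.42 and -0.28, and Il6ra and Stat3 at 162 µg -0.043 and -0.049. With Cy5 alone Lif and Osm at 162 µg against 18 µg were -0.18 and -0.13. Il6st at 18 µg was -0.016 with no slide term, and Osm at 162 µg against 18 µg -0.0070 with only the 2 groups compared. Without each mouse in turn Il6ra ran from -0.27 to 0.052 at 18 µg and from -0.091 to 0.21 at 54 µg, Stat3 at 18 µg from -0.11 to 0.0038, and Lif and Osm at 162 µg against 18 µg from -0.0030 to 0.15 and from -0.071 to 0.12. Median centring moved the median of all expressed genes to -0.26 at 18 µg and -0.18 at 162 µg, and no normalization to -0.42 and -0.21. With median centring 76 genes were called higher and 248 lower at 162 µg, against 549 and 580 with loess. The deposited log2 table correlated at 0.834 to 0.998 with the values used, with column medians of -0.05 to -0.02, so its direction and centring were those of the ratios used and its normalization stays unknown. Scan date equals slide and was not run apart from it. Il6 in controls and Lif throughout were limited by signal over background.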
